A study of Homo sapiens with 2 samples.

Results

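NRF1 was bound between 500 bp and 2 kb from the transcription start site (TSS) of a gene at 330 of 5683 peaks in HCT116 cells, a human colorectal carcinoma line. These are the peaks of the deposited list that match, by chromosome, start and end, an entry of the study's own list of sites within 2 kb of a TSS, at a listed distance above 500 bp. The list within 2 kb holds 812 sites, and its other 482 sites lay within 500 bp of their TSS. The text of the study gives a lower number of sites within 2 kb, and the difference was not resolved. Of the 330 sites, 143 lay upstream of the assigned TSS and 187 lay downstream of it. They were assigned to 325 gene symbols, with a protein-coding RefSeq transcript at 266 sites and a non-coding one at 64, of which 15 carried a microRNA symbol.

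The peaks come from chromatin immunoprecipitation followed by sequencing (ChIP-seq) of 1 library, made with an antibody to NRF1 from cells that had been kept for 16 h in MG132 at 1 µM. MG132, a peptide aldehyde, blocks the proteasome. No untreated ChIP library is part of the comparison, so that no value below is a response to MG132. The input library from cells given the same treatment was not analysed here. With 1 library there is no replicate error and the depth is unknown. The tests below therefore compare sites with one another, sites are not replicates of a condition, and the 95% intervals cover counting error only.

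NRF1 here is the product of NFE2L1, a transcription factor of the cap'n'collar basic leucine zipper family, and not nuclear respiratory factor 1, which carries the same short name. Its precursor sits in the membrane of the endoplasmic reticulum, is pulled into the cytosol by the p97 ATPase and is normally destroyed by the proteasome. When the proteasome is inhibited, the processed form enters the nucleus, pairs with a small MAF protein and binds the antioxidant response element (ARE), as it is known to do at genes of proteasome subunits.

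The ARE was searched on both strands as TGACNNNGC or TGAGNNNGC, where N is any base, and in the more stringent form TGACTCAGC or TGAGTCAGC, called the full ARE below. Windows of 121 bases show how the element sat at 6 sites that the text returns to. Each window is centred on an ARE, or on the peak centre where the peak had none, is taken from hg19 and is written 5′ to 3′ on the strand of the assigned gene. Capitals mark the ARE or its reverse complement.
FTL, upstream, chr19:49467143-49467263, plus strand: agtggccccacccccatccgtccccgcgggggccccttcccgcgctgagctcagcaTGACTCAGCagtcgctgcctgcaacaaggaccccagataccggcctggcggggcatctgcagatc
SQSTM1, upstream, chr5:179246529-179246649, plus strand: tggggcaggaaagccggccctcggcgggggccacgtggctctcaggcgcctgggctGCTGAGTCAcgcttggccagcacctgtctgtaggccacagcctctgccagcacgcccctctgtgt
NSFL1C, downstream, chr20:1447214-1447334, minus strand: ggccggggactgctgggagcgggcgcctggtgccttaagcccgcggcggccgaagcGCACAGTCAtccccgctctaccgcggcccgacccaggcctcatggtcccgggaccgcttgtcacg
MAFG, downstream, chr17:79884787-79884907, minus strand: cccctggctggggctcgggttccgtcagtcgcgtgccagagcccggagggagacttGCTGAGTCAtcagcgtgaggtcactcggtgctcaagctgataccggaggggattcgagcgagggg
FOSL1, downstream, chr11:65666801-65666921, minus strand: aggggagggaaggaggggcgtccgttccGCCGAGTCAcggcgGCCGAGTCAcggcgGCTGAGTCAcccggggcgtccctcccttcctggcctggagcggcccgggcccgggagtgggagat
GABARAPL1, downstream, chr12:10366017-10366137, plus strand: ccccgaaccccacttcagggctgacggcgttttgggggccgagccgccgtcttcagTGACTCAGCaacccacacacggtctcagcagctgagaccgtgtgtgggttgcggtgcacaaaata
The windows differ in the form of the element. NSFL1C, which had the highest score of all the sites, holds no full ARE, whereas FOSL1 holds 3 AREs in a row, of which 1 is full.

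The strength of a peak was read from the deposited score. In the peak caller MACS this score is the negative log10 of a peak's p-value multiplied by 10, and higher scores mark clearer peaks. Scores of the 330 sites ran from 50.39 to 877.86, with a median of 89.33, and 61 sites were among the 1000 peaks with the highest scores. A score of at least 100 was reached by 141 sites (42.7%), against 44.3% of all peaks. The highest upstream scores were those of FTL (682.94), the light chain of the iron store ferritin, BRD2 (661.52), a bromodomain protein that binds acetylated histones, and SQSTM1 (616.46), which encodes the autophagy receptor p62. They were followed by CANX (494.29), the chaperone calnexin of the endoplasmic reticulum, IPPK (461.25), an inositol phosphate kinase, mir200c (431.51), OLFM2 (386.86) and ENO1 (384.33), the glycolytic enzyme enolase. The highest downstream scores were those of NSFL1C (877.86), the p97 cofactor p47, WDR81 (814.11), PPP2R2C (543.27), a regulatory subunit of protein phosphatase 2A, and MAFG (528.72), a small MAF partner of NRF1. ALOX12P2 (486.2), a pseudogene, LRP8 (481.75), a lipoprotein receptor, LOC101928279 (477.8) and PSMD12 (430.05), a subunit of the regulatory particle of the proteasome, came next. Each of these 16 sites held a match to the ARE consensus.

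**Figure D1:**
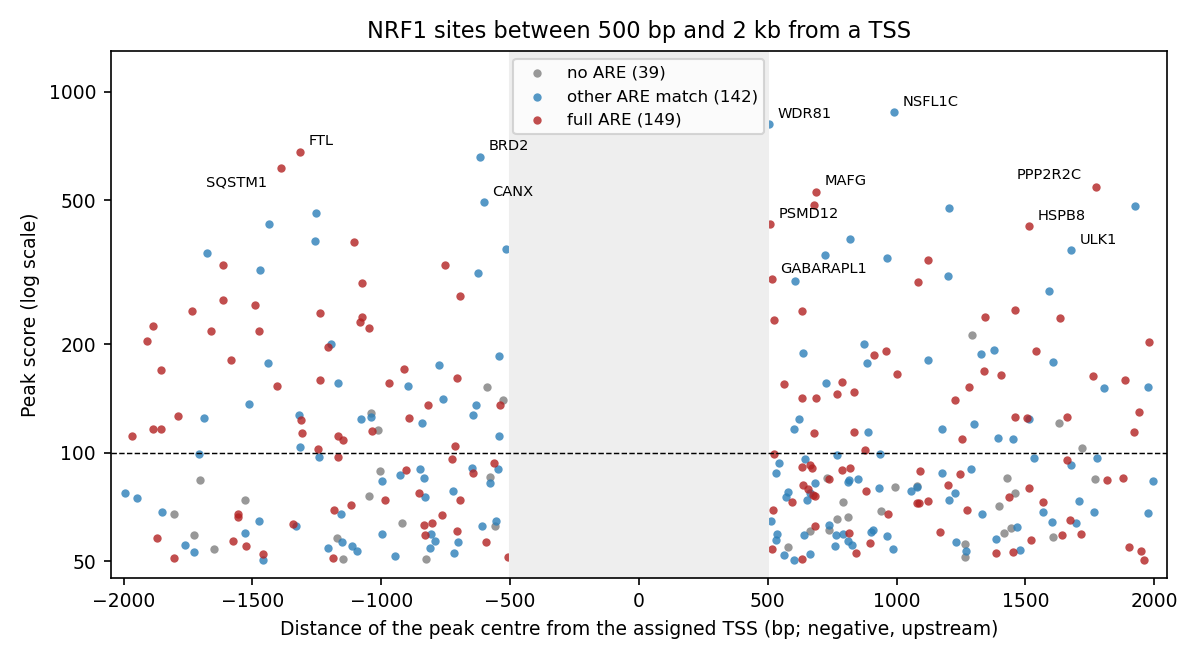
Score of each of the 330 sites (points, logarithmic axis) against the distance of the peak centre from the TSS assigned in the study's list (bp), coloured by the best ARE in the peak. Sites with scores above 100 (dashed line) occur at all distances on both sides, and the 39 grey points without an ARE stay at or below 211.87.

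Upstream and downstream sites did not differ in their AREs by more than counting error. Upstream, 126 of 143 sites (88.1%, 95% Wilson interval 81.8 to 92.4%) held the ARE consensus. Downstream, 165 of 187 sites did (88.2%, 82.8 to 92.1%). In all peaks the share was 87.4%. The difference of -0.12 percentage points had an interval from -7.54 to 6.80 (Newcombe), with p = 1 by Fisher's exact test, two-sided, and p = 1 after Benjamini-Hochberg adjustment over 16 tests. The full ARE was found at 66 upstream sites (46.2%) and at 83 downstream sites (44.4%), against 61.3% of all peaks. That difference was 1.77 points (-8.94 to 12.5, Fisher's exact p = 0.823, adjusted p = 1). These intervals leave room for a difference of several points in either direction. The direction of both differences depended on how sites were counted: with downstream sites limited to a first exon or first intron, the consensus was 1.78 points more frequent upstream, and in the central 200 bp the full form was 1.15 points less frequent upstream (difference of -1.15).

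Median scores were 97.18 for upstream sites, which ranged from 50.41 to 682.94, and 84.64 for downstream sites, which ranged from 50.39 to 877.86, so that the groups overlapped over almost their whole range. A score of at least 100 was found at 70 upstream sites (49.0%) and 71 downstream sites (38.0%). The difference of 11.0 points (0.22 to 21.5) gave p = 0.0562 by Fisher's exact test and an adjusted p of 0.0899. When downstream sites were limited to the 161 within a first exon or first intron of any transcript, it was 12.9 points, with p = 0.0270 by Fisher's exact test and an adjusted p of 0.0433. This excess of stronger peaks upstream therefore passed or missed the threshold according to that choice. Peaks were also slightly wider upstream, with a median width of 543 bp, than downstream, with a median of 502 bp.

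Downstream sites lay mainly in first introns. In the canonical GENCODE transcript of the assigned gene, 124 of the 187 downstream sites (66.3%) had their centre in intron 1 and 7 (3.74%) in exon 1. A further 15 were in intron 2 and 10 in intron 3, and 19 were outside the canonical transcript. Among the upstream sites, 126 of 143 (88.1%) were outside the canonical transcript of their gene. Sites were chosen by side and distance from a TSS, and positions at the same distances were not counted as a background. These shares therefore describe the sites only. The centres of 34 upstream and 37 downstream sites fell inside the canonical transcript of a different gene.

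The distance from a TSS depended on the annotation. Of the 320 sites whose assigned gene could be matched to GENCODE, 87 lay within 500 bp of an annotated start of that same gene, 228 between 500 bp and 2 kb, and 5 farther away. BRD2 is one such case, since its site was listed upstream at -617 bp. GENCODE places it 25 bp downstream of one start and in intron 1 of the canonical transcript. The BRD2 peak centre was also in exon 1 of the non-coding ENSG00000223837. NSFL1C is another such case, with its peak centre 122 bp from an annotated start. The SQSTM1 peak was at -1450 bp from the canonical start and 488 bp downstream of another annotated start of the same gene. Counting the starts of all genes, 41 upstream sites (28.7%) and 84 downstream sites (44.9%) had a GENCODE TSS within 500 bp. The share was 16.2 points lower upstream (difference -16.2, interval -26.1 to -5.73, Fisher's exact p = 0.0029, adjusted p = 0.0058). This direction belongs to the study's assignment of sides. With sides set by the nearest GENCODE TSS, by which 83 of the 330 sites change side, the share was 13.8 points higher upstream (Fisher's exact test, adjusted p = 0.0221).

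CpG-rich sequence was most frequent at the sites nearest to the TSS. A window of 500 bp was called CpG-rich where its GC content was above 0.5 and its ratio of observed to expected CpG above 0.6, and 8.41% of all peaks met this. Among the sites 70 did (21.2%), of which 27 were upstream (18.9%) and 43 downstream (23.0%), a difference of -4.11 points (-12.7 to 4.91, Fisher's exact p = 0.416, adjusted p = 0.605). In the bins between 500 and 750 bp from the TSS, the nearest of the window, the share was 35.5% of 31 sites upstream (interval 21.1 to 53.1%) and 45.1% of 51 sites downstream (32.3 to 58.6%). From 1250 bp downstream to 2 kb it was between 3.33% and 10.5% per bin, and from 1250 bp upstream to 2 kb between 10.5% and 14.3%. The share with a full ARE was lowest in the nearest upstream bin (35.5%, interval 21.1 to 53.1%) and highest in the farthest upstream bin (64.3%, 38.8 to 83.7%), and it lay between 36.6% and 57.9% in the bins downstream. The intervals of the 12 bins overlapped, so that no course of the full ARE with distance was established.

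**Figure D2:**
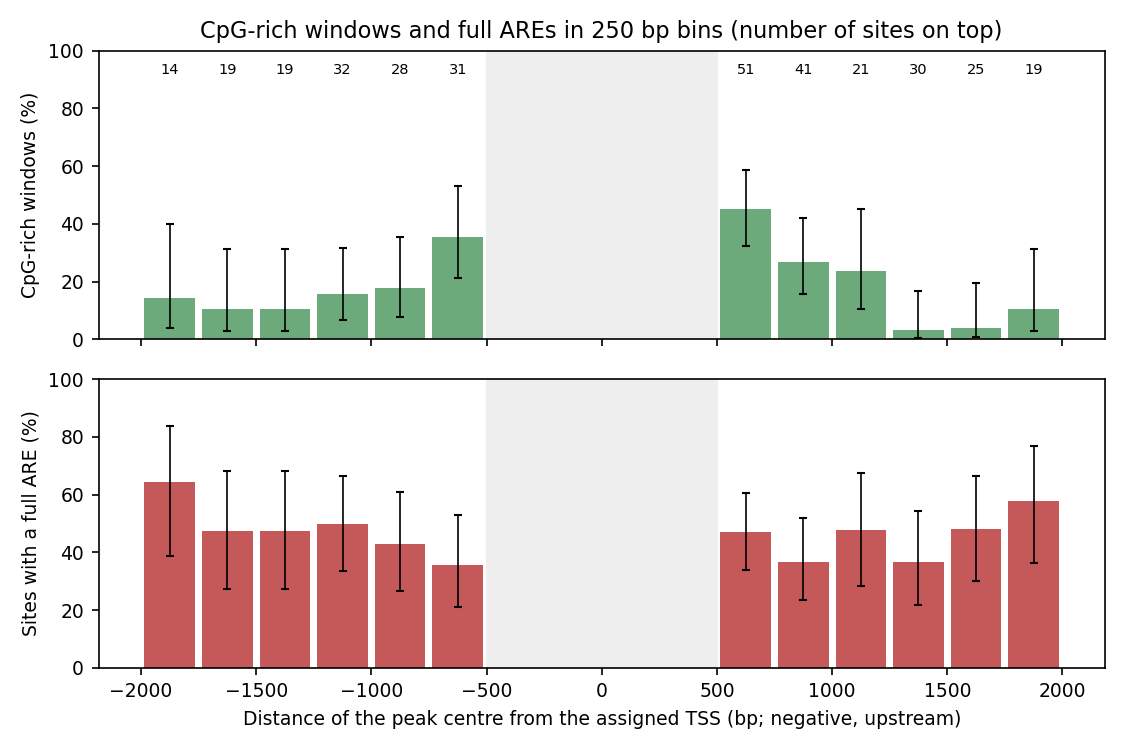
Share of sites in a CpG-rich window (upper panel, %) and with a full ARE (lower panel, %) in bins of 250 bp by distance of the peak centre from the assigned TSS (bp), with 95% Wilson intervals and the number of sites above each bin. CpG-rich windows are most frequent in the bins next to the TSS (35.5% and 45.1%), whereas full AREs range from 35.5% to 64.3%, both upstream, with overlapping intervals.

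The share of sites with a full ARE lay between that of the peaks nearer to a TSS and that of the remaining peaks. It was held by 149 of the 330 sites (45.2%), by 125 of the 482 sites within 500 bp of a TSS (25.9%) and by 3204 of 4861 other peaks (65.9%). The sites exceeded those within 500 bp by 19.2 points (12.5 to 25.8, Fisher's exact p = 1.92e-08, adjusted p = 5.13e-08). They fell below the other peaks, with a difference of -20.8 points (-26.2 to -15.2, Fisher's exact p = 1.22e-13, adjusted p = 3.91e-13). The consensus itself was found at 291 sites (88.2%), 392 sites within 500 bp (81.3%) and 4275 other peaks (87.9%). The first difference was 6.85 points (1.77 to 11.7, Fisher's exact p = 0.00843, adjusted p = 0.0150). By the same exact test it no longer passed in the central 200 bp (5.87 points, adjusted p = 0.113) or for protein-coding assignments alone (5.51 points, adjusted p = 0.107). The second difference was 0.24 points (-3.79 to 3.43, Fisher's exact p = 1, adjusted p = 1). In the central 200 bp, where 80.2% of all peaks held the consensus and 57.9% the full form, the sites were instead below the other peaks, with a difference of -7.17 points (Fisher's exact test, adjusted p = 0.0034).

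CpG-rich windows made up 21.2% of the sites, 66.4% of the sites within 500 bp and 1.79% of other peaks. The sites differed from the former by -45.2 points (-50.9 to -38.8, Fisher's exact p = 3.96e-38, adjusted p = 1.58e-37) and from the latter by 19.4 points (15.3 to 24.2, Fisher's exact p = 5.18e-44, adjusted p = 4.14e-43). Within CpG-rich windows, the full ARE was held by 21 of 70 sites (30.0%), 53 of 320 sites within 500 bp (16.6%) and 41 of 87 other peaks (47.1%). Outside them it was held by 128 of 260 sites (49.2%), 72 of 162 sites within 500 bp (44.4%) and 3163 of 4774 other peaks (66.3%). Outside CpG-rich windows the intervals of the sites (43.2 to 55.3%) and of those within 500 bp (37.0 to 52.1%) overlapped widely, with a smaller gap than over all windows. In CpG-rich windows they were 20.5 to 41.5% and 12.9 to 21.0%. The part of base composition in the difference was not tested. Scores of at least 100 were less frequent among the sites than among those within 500 bp (42.7% against 54.8%, difference -12.0 points, interval -18.9 to -5.05, Fisher's exact p = 0.000789, adjusted p = 0.0018). They were about as frequent among the other peaks (43.4%), with a difference of -0.68 points (-6.08 to 4.89, Fisher's exact p = 0.819, adjusted p = 1).

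**Figure D3:**
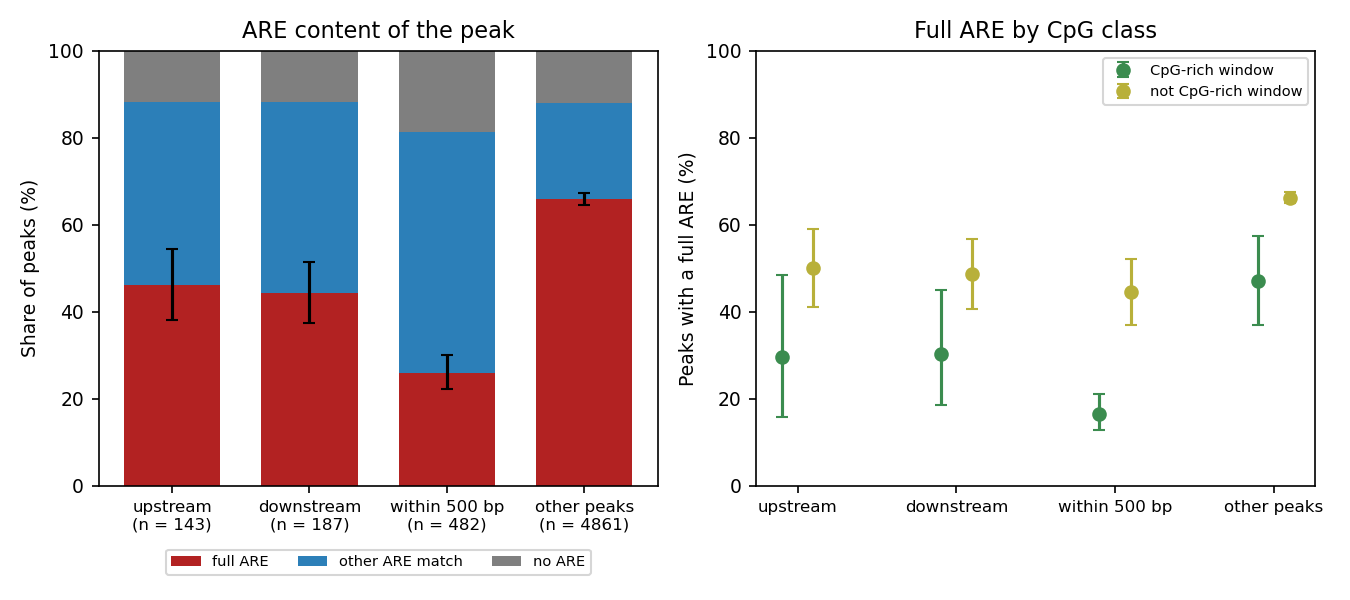
Left, share of peaks (%) with a full ARE, another ARE match only or none in upstream sites, downstream sites, sites within 500 bp of a TSS and other peaks, with 95% Wilson intervals of the full ARE. Right, share of peaks with a full ARE (%) by CpG class of the 500 bp window in the same groups, showing that sites within 500 bp in CpG-rich windows have the lowest share (16.6%).

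AREs were more frequent in the peaks than beside them. For the 320 sites with a matched gene, whose strand gives the side of the TSS, an equally long stretch beginning 2 kb from the peak edge, away from the TSS, was searched in the same way. The consensus was found in 281 of these peaks (87.8%) and in 107 flanks (33.4%), with 180 pairs positive in the peak only and 6 in the flank only (exact McNemar p = 1.12e-45, adjusted p = 1.79e-44). The full ARE was found in 145 peaks (45.3%) and 2 flanks (0.625%), with 143 pairs positive in the peak only and 0 in the flank only (exact McNemar p = 1.79e-43, adjusted p = 9.57e-43). The short consensus thus had a background near 33.4% in stretches of this length away from the TSS, whereas the full form was almost absent from them. In flanks towards the TSS the shares were 38.1% (122 of 320) for the consensus and 1.88% (6 of 320) for the full form.

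Median scores were highest where the element was full and lowest where there was none, although the highest single score, 877.86, belonged to a site with another match only. The 149 sites with a full ARE had a median score of 108.92, and 79 of them (53.0%) reached 100. The 142 sites with another match only had a median of 85.86, and 55 of them (38.7%) reached 100. The 39 sites without a match had a median of 71.12 and a maximum of 211.87, and 7 of them (17.9%) reached 100. The same order of medians held upstream (115.6, 90.03 and 73.86) and downstream (92.37, 83.87 and 69.97), as a description without a test. Peak width sets the length searched, and its part in this order was not tested.

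Of the 149 full AREs, taking the one nearest to the peak centre, 112 (75.2%) read TGACTCAGC and 37 read TGAGTCAGC. The base after the element was A in 92 cases (61.7%), as in the GABARAPL1 window above. Where only another match was present, the most frequent forms were TGACACAGC at 18 sites, BRD2 among them, TGACGCAGC at 9 and TGACTCTGC at 8, CANX among them. The element lay on the strand of the assigned gene in 72 of 145 cases with a known strand (49.7%, 41.6 to 57.7%, exact binomial p = 1, adjusted p = 1), so that no orientation was preferred beyond counting error. The full ARE was within 50 bp of the peak centre, taken as the middle of the interval, at 104 of 149 sites (69.8%). Among peaks with a full ARE, this held for 67.2% within 500 bp of a TSS and 74.5% of other peaks. Among the sites here, the share was 41 of 66 upstream (62.1%, interval 50.1 to 72.9%) and 63 of 83 downstream (75.9%, 65.7 to 83.8%), with overlapping intervals. The largest offset was 252 bp, at PSMD12.

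**Figure D4:**
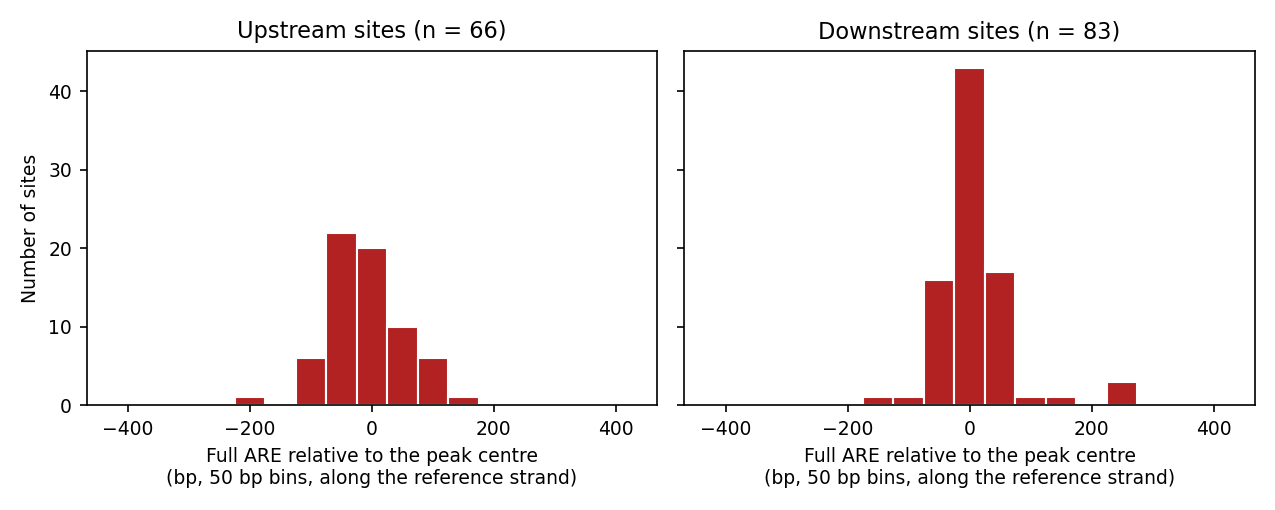
Number of sites by position of the full ARE nearest to the peak centre (bp, bins of 50 bp) for upstream sites (left, n = 66) and downstream sites (right, n = 83). Most elements lie within 50 bp of the centre, with 41 of 66 upstream and 63 of 83 downstream, and no element is farther than 252 bp.

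A site held at most 2 full AREs. Of other peaks 4.34% held 2 or more, and of the sites within 500 bp 2.70%. Here 12 sites (3.64%) had 2. The strongest of these were SQSTM1, ALOX12P2, HSPB8, a small heat shock protein that acts with BAG3 in the removal of misfolded proteins, and GAPDH, the glycolytic dehydrogenase. At SQSTM1 the full AREs were 134 bp and -344 bp from the peak centre along the reference strand, as shown here with 10 bases on each side.
SQSTM1, chr5:179246575-179246603, minus strand: tggccaagcgTGACTCAGCagcccaggcg
SQSTM1, chr5:179246097-179246125, minus strand: tggccggcagTGAGTCAGCgtcccatgac
At BACH1, a repressor that competes for AREs, the weaker peak (78.15) also held 2.
BACH1, chr21:30672627-30672655, minus strand: ctggggcgaaTGACTCAGCaacccaactt
BACH1, chr21:30672488-30672516, plus strand: aggctcccggTGAGTCAGCttggagtagg
The scores of these sites with 2 full AREs ran from 50.43 at DMBX1 to 616.46 at SQSTM1, so that a second copy did not go with a uniformly high score.

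Genes were grouped by lists of known function, chosen with earlier results and the names of the assigned genes in view, so that the counts describe the sites and are no evidence of a preference. For scale, 1.35% of protein-coding GENCODE genes (272 of 20136) had one of the sites. The share of all genes with a site within 500 bp was not counted. A list's share here and its share within 500 bp therefore cannot be compared. Of 47 genes of the proteasome, 3 (6.38%) had a site at 500 bp to 2 kb, and 32 (68.1%) had one within 500 bp of the TSS. PSMD12 (430.05) held a full ARE, KIAA0368 (307.89), whose product ECPAS binds the proteasome, held another match, and PSME4 (71.12), the activator PA200, held none. All 3 were in intron 1 of the canonical transcript. PSME4 had a second peak within 500 bp of the TSS, with a score of 90.53.

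Among 50 genes of p97 cofactors and ubiquitin handling, 10 (20.0%) had a site and 12 (24.0%) had one within 500 bp. Of the 10 sites, 8 lay downstream and 8 had a score of at least 100. NSFL1C was the strongest, with the window above. It was followed by KCMF1 (299.99), an E3 ubiquitin ligase, FBXO30 (188.11) and KLHL21 (178.4), adaptors of ubiquitin ligases, and UBXN4 (176.74), a p97 adaptor of the endoplasmic reticulum. These 5 sites held other matches to the consensus and no full ARE. FBXO44 (161.25), another F-box protein, and RFFL (104.11), a RING finger ligase, were the only members of this list with a full ARE, and both lay upstream. The FBXO44 peak was also in intron 1 of FBXO2, at -140 bp from an annotated start of that gene, and its position does not tell the genes apart. RNF13 (77.27) and TRIM37 (65.35) held none.

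Of 48 autophagy genes, 9 (18.8%) had 10 sites, and 5 genes (10.4%) had one within 500 bp. Besides SQSTM1, GABARAPL1 was bound on both sides of the TSS assigned in the study's list. By GENCODE, its upstream and downstream peak centres were at -95 and -23 bp from the nearest annotated start of any gene. GABARAPL1 encodes a member of the ATG8 family, which is attached to the autophagosome membrane. Its downstream peak (302.72) held the full ARE shown above, 601 bp into the gene from the canonical start and in intron 1. Its upstream peak (139.88) held no ARE, and its centre was at -514 bp from the canonical start. The window around that centre carries cctgagtca, which contains the AP-1 site. It differs only in its first base from GCTGAGTCA, the reverse complement of a full ARE.
GABARAPL1, upstream, chr12:10364902-10365022, plus strand: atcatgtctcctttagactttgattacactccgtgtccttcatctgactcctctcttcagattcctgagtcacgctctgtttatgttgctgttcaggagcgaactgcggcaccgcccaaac
ULK1 (363.96), the kinase that starts autophagosome formation, held a match read as TGACATTGC 222 bp from the peak centre and no full ARE. The centre of this peak lay in intron 3, 1789 bp from the canonical start. It was at -89 bp from the start of ENSG00000279283, so that the gene bound there cannot be told from the position. Full AREs were found at MAP1LC3B2 (98.92), TBK1 (89.26), SCOC (77.15) and RB1CC1 (56.16), all with scores below 100. TBK1 encodes the kinase that phosphorylates p62, and its site lay in intron 1 with the element 3 bp from the peak centre (-3). RB1CC1 encodes FIP200, a partner of ULK1. MAP1LC3B (54.64), which encodes LC3B, held no ARE. WDR81 (814.11), which acts in endosome and aggregate turnover, had 5 other matches in a peak of 1363 bp, and the same peak was in intron 1 of MIR22HG, whose start was 146 bp away, so that the gene bound there cannot be told from the position.

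Chaperone genes had 6 sites in a list of 46 (13.0%), and 2 genes (4.35%) had one within 500 bp by the study's distances. All 6 sites scored at least 100, from 154.77 to 494.29. CANX was the strongest, with 3 other matches and no full ARE. HSPB8 (423.77), HSPA9 (232.61), the mitochondrial HSP70, BAG2 (203.22), a co-chaperone of HSC70, and HSP90AB1 (154.77), the cytosolic HSP90 beta, held a full ARE, with the peak centre in intron 1. DNAJB4 (177.32), an HSP40, lay upstream with another match. By GENCODE, the peak centres at CANX (-77 bp), HSPA9 (32 bp), BAG2 (-48 bp) and HSP90AB1 (-343 bp) were within 500 bp of an annotated start of any gene. Those at HSPB8 (714 bp) and DNAJB4 (1043 bp) were not.

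Among 48 genes of redox, iron and drug metabolism, 9 (18.8%) had a site and 12 (25.0%) had one within 500 bp. Full AREs were found at FTL, ABCB6 (296.63), a porphyrin transporter, ALDH3A2 (221.16), a fatty aldehyde dehydrogenase, BLVRB (139.83), biliverdin reductase B, CTH (116.18), the enzyme that makes cysteine from cystathionine, and MSRB1 (87.37), a methionine sulfoxide reductase. The FTL peak was also 3 bp from the start of the non-coding ENSG00000267898 and in its exon 1, so that the gene bound there cannot be told from the position. At FTL the element lay 47 bp from the peak centre (-47) and -1363 bp from the canonical start. ABCC2 (96.96) and SLC1A5 (155.73), transporters of drug conjugates and of glutamine, held other matches, and CBR3 (85.87), carbonyl reductase 3, held none.

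Genes of NRF1 partners and related leucine zipper factors had 3 sites in a list of 37 (8.11%), all downstream, all in intron 1 and all with a full ARE. Within 500 bp, 5 genes of the list (13.5%) had a site. MAFG had a second and stronger peak within 500 bp of its TSS (1022.83, against 528.72 here). FOSL1 (342.26) encodes FRA1, a member of AP-1, and its 3 AREs in a row were centred -13, 1 and 15 bp from the peak centre along the reference strand. The full one, at -13 bp, lay farthest into the gene, 998 bp from the canonical start. BACH1 is described above.

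Actin and tubulin genes had 14 sites in a list of 44 (31.8%), and 2 genes (4.55%) had one within 500 bp by the study's distances. By GENCODE, the peak centres at PFN2 (-457 bp), TUBA1B (-231 bp), ACTG1 (-200 bp) and PFN1 (-398 bp) were within 500 bp of an annotated start of any gene. Those of the other members were not. Scores of the 14 sites were low, from 51.34 to 280.74 with a median of 77.15, and 3 of the 14 reached 100. These were PFN2 (280.74), profilin 2, MAPRE3 (152.41), a protein that binds the plus ends of microtubules, and TUBA1B (116.03), an alpha-tubulin. All 14 held the consensus, 5 of them in the full form. Of 19 glycolytic enzymes, 3 (15.8%) had a site, namely ENO1, GAPDH (330.93) and PKM (63.85), and 2 (10.5%) had one within 500 bp. ENO1 and GAPDH held full AREs upstream, and PKM held TGACTTAGC in intron 1.

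In all, 10 genes had a site here and one within 500 bp as well, and the nearer peak was not always the stronger. The share of all genes with a site within 500 bp was not counted, so that this number is a description only. SQSTM1 scored 616.46 at the site upstream and 593.29 within 500 bp, and both held a full ARE. GAPDH scored 330.93 here and 59.26 within 500 bp. The reverse held for TBK1, with 89.26 against 335.97, and for RFFL, with 104.11 against 289.92. There were 5 symbols with 2 of the sites, namely CNTN1, GABARAPL1, LOC613038, MIR5188 and NR1D2. At CNTN1 the downstream site (159.45) held a full ARE and the upstream site (50.73) none. For LOC613038 both sites (75.6 and 52.7) held other matches only, and at NR1D2, a nuclear receptor of the circadian clock, the scores were 64.7 and 53.08, the full ARE being in the weaker one.

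Right next to the limits of the window, weak and strong peaks lay close together. As groups, the sites within 500 bp reached a score of 100 more often than the sites here (54.8% against 42.7%). Just inside 500 bp were WDR81 (505 bp, score 814.11), TMSB4X (-507 bp, 51.34) and PSMD12 (510 bp, 430.05), and nearer to the TSS were ACYP2 (491 bp, 641.17) and TUBB4B (493 bp, 61.78). Just inside 2 kb were BAG2 (1978 bp, 203.22), ACTG1 (-1996 bp, 77.14) and LOC149950 (1997 bp, 83.55). Beyond it followed FGF14-AS1 (2005 bp, 172.76), TLR1 (2008 bp, 65.72) and CD37 (-2015 bp, 51.77), all with a full ARE.

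Other motifs were counted in the central 200 bp on both strands. The AP-1 site TGACTCA, which reads TGAGTCA on the other strand and is contained in every full ARE, was found in 179 of 330 sites (54.2%), against 68.8% of all peaks. Among the 39 sites without an ARE, 15 held it (38.5%, interval 24.9 to 54.1%). The GC box GGGCGG, bound by SP1, was found in 65 sites (19.7%), against 42.5% of the sites within 500 bp and 8.82% of all peaks. The ETS site CCGGAA was found in 16 sites (4.85%), against 19.5% within 500 bp and 4.14% of all peaks. The palindrome CGCATGCG of nuclear respiratory factor 1 was found in 0 of 330 sites, against 9 of 482 within 500 bp and 10 of all peaks. These matches are descriptions of the sequence, with no test.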

How the data were processed

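The deposited list of 1 NRF1 ChIP-seq library was used. Per the submitters' processing notes and the study's methods, the authors aligned single-end reads to the hg19 build by Bowtie2 2.2.6 and called peaks with MACS 1.4.2, and CASAVA 1.8.2 is also named. The MACS settings, the control and the treatment of duplicate reads are not given in the sources used here. The deposited score of a peak is the authors' value, 10 times the negative log10 of its p-value in MACS, which makes a score of 50 a p-value of 1e-05, and it was used to rank peaks and to count those of at least 100. Wide peaks and duplicates can move it. The depth is unknown.

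Sites were matched to the study's list of sites within 2 kb of a TSS by coordinates, and sides follow its distances. The members, the 8 gene lists, the tests and the alternatives were chosen with earlier results of these data known. Sequence came from GRCh37 (hg19) and transcripts from GENCODE release 44 mapped to that build. The 5 peaks on unplaced contigs and 5 peaks with undetermined bases, none of them among the sites, were left out of sequence tests. AREs were searched in the whole peak, and CpG content in 500 bp around its centre. Shares were compared by Fisher's exact test, flanks by the exact McNemar test and orientation by the exact binomial test, all two-sided, with Benjamini-Hochberg adjustment over 16 tests and intervals at 95% (Wilson for shares, Newcombe for differences). Genes named are those of the 8 highest scores on each side, of the gene lists, at the limits of the window, with the most full AREs, with 2 or more sites, and a set shown by sequence. BRD2 and NSFL1C as examples of annotation, DMBX1 as the lowest score with 2 full AREs and the genes with a site within 500 bp as well were described after their values were seen. Functions of genes are background knowledge. A site at one limit of the window is not reported here. The scripts were tested on simulated data. Tests ran in scipy 1.17.1 under Python 3.11.15, sequences were read with pysam 0.24.0, tables were handled with pandas 2.3.3 and numpy 2.4.6, and plots were drawn with matplotlib 3.10.9. As alternatives served the central 200 bp, peaks with a score of at least 100 only, scores above the median of the list, CpG content of the whole peak, sides by the nearest GENCODE TSS, TSSs of protein-coding genes only, first exons and introns only, protein-coding assignments only, the consensus for orientation, and flanks towards the TSS.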

Additional observations from a re-analysis of the deposited data

How the results depend on the processing

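Of 57 alternatives to the 16 tests, 45 kept the direction and the side of the threshold. The ARE share of upstream against downstream sites, at -0.12 points, was 1.78 with first exons and introns only, 7.10 with sides by the nearest GENCODE TSS and 1.26 with protein-coding assignments only, and the full ARE share, at 1.77, was -1.15 in the central 200 bp, none past the threshold in any of these. The share with a score of at least 100 was 12.9 points higher upstream with first exons and introns only, and passed (Fisher's exact test, adjusted p = 0.0433). With its other alternatives this difference missed the threshold, as it did in the main setting. The share with a GENCODE TSS within 500 bp turned from -16.2 to 13.8 points with sides by the nearest GENCODE TSS, which sets side and distance from the same start. Against sites within 500 bp, the ARE excess no longer passed in the central 200 bp (5.87 points) or with protein-coding assignments (5.51 points). Against other peaks, the ARE difference was -7.17 points in the central 200 bp, past the threshold, and -0.73 with protein-coding assignments. The orientation, at -0.34 points from an even split, was 0.88 with protein-coding assignments and 1.25 for the consensus. The cause of these changes was not tested. No paired analysis was possible because 1 ChIP library was analysed. For the same reason no replicate could be left out, and sites that a deeper or repeated library would add or lose cannot be told.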

Other observations

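Of the 330 sites, 15 were assigned to a microRNA symbol, in some cases beside a protein-coding or host gene that GENCODE places nearer. The strongest was mir200c (431.51), of a family known for restraining the loss of epithelial traits, whose peak held a consensus match without a full ARE and lay at -962 bp from the start of its host transcript MIR200CHG. MIR365A (248.27) and MIR619 (180.27) held a full ARE, the former in intron 1 of MIR193BHG and the latter in intron 2 of SSH1. MIR22 (152.9) held another match. These genes were chosen after their values were seen.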
